A study of Mus musculus with 8 samples.

Results

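Genes for tRNA charging, for amino acid synthesis and for the ATF4 stress program were examined together in mouse monocytes and their progenitors. The members are 37 listed genes, matched by symbol alone: 20 cytosolic aminoacyl-tRNA synthetases, and 17 genes made up of Atf4, its relatives and genes known as targets of the ATF4 program. All 37 were found among the 13388 genes of the deposited table, with the methionine enzyme Mars listed there as Mars1. RNA was sequenced from 4 groups of 2 libraries each, all from sorted cells of wild-type mouse bone marrow. The groups were common monocyte progenitors (cMoPs) on OP9-DLL1, cMoPs on OP9, Ly6C+ classical monocytes on OP9-DLL1 and Ly6C+ classical monocytes on OP9, each kept in coculture for 6 h. OP9 is a mouse bone marrow stromal cell line, and OP9-DLL1 is that line made to display DLL1, a ligand of Notch receptors. The labels do not say whether the replicates came from separate animals or cultures. The p-values therefore weigh differences between groups only against the spread between these libraries, and that spread may be technical.

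An aminoacyl-tRNA synthetase joins 1 amino acid to its matching tRNA, and the ribosome then reads that tRNA into protein. When an amino acid runs short, uncharged tRNA activates the kinase GCN2, which phosphorylates eIF2α and lowers translation while ATF4 protein is made more. ATF4 is a transcription factor that turns on genes for amino acid synthesis and import, many cytosolic synthetases and the stress factor CHOP. ATF4 is set largely at translation, so the level of its mRNA does not report the level of its protein.

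Depth was 47316323 to 62459962 reads per library, recovered from the deposited values. Levels are in CPM, the reads of a gene scaled to a common library size. Progenitor markers such as Mpo and Elane summed to 18660 and 21960 CPM in cMoPs on OP9-DLL1 and 14680 and 17520 CPM in cMoPs on OP9, against 162 to 295 CPM in the 4 monocyte libraries. Monocyte markers summed to 6659 to 8058 CPM in the 4 cMoP libraries, against 27690 to 44380 CPM in the 4 monocyte libraries. The sums thus matched the labelled cell types, although single markers did not all do so. Of the 8 monocyte markers, 6 were lower and 2 were higher in cMoPs than in monocytes on each stroma. Proliferation markers summed to 3677 to 4406 CPM in cMoPs, against 925 to 1726 CPM in monocytes. Of 20 stroma markers 9 were in the table, and their sum was 5.51 and 24.4 CPM in monocytes on OP9-DLL1, against 36.8 and 43.5 CPM in monocytes on OP9, and it was 1.88 to 5.33 CPM in the cMoP libraries. Their part in the results was not tested. In bulk samples, fewer cells of a type and less RNA per cell cannot be told apart.

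The C/EBP-ATF response element, bound by ATF4 with a C/EBP partner, was looked for in the promoters as the letters TGATGNAA, or TTNCATCA on the other strand. RefSeq promoter windows of 300 bases on GRCm38.p6, 250 before and 50 after the start site, were matched for 29 of the 37 genes. Of these 10 held the motif, which is 34.5%, against 3.97% of all 32851 windows and 2.87% of the 9072 genes of the table with a window. The 10 were Aars, Gars, Iars, Tars and Yars among the synthetases and Asns, Slc7a11, Trib3, Chac1 and Pycr1 among ATF4 and its targets. The list holds genes chosen as known ATF4 targets, so this share describes the list and is no independent evidence. Among matched synthetases the motif was in 5 of 8 known as ATF4 targets and in 0 of the 5 others. The 4 windows with the motif whose genes had the lowest adjusted p in monocytes on OP9-DLL1 against OP9 are shown 5′ to 3′ on the gene's strand, with the motif in capitals. They lie at chr6:7693160-7693459 (Asns, minus strand), chr6:55037751-55038050 (Gars, plus strand), chr4:129189653-129189952 (Yars, plus strand) and chr15:11399609-11399908 (Tars, minus strand).
Asns: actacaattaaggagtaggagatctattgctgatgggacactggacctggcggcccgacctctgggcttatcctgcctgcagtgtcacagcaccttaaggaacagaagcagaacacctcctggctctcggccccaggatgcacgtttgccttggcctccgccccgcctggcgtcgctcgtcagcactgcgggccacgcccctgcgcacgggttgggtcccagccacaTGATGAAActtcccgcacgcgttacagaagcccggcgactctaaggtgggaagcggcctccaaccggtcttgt
Gars: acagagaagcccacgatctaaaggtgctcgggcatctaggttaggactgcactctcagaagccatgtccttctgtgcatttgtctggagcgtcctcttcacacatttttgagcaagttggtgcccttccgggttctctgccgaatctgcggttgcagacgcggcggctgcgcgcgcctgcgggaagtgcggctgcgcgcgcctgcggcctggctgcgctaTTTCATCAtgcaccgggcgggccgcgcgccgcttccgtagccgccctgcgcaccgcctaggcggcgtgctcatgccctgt
Yars: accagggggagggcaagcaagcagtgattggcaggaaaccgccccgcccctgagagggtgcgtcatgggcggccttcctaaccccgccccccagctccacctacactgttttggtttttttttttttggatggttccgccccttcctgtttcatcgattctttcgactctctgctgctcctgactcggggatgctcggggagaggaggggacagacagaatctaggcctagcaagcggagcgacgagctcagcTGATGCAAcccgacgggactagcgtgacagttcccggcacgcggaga
Tars: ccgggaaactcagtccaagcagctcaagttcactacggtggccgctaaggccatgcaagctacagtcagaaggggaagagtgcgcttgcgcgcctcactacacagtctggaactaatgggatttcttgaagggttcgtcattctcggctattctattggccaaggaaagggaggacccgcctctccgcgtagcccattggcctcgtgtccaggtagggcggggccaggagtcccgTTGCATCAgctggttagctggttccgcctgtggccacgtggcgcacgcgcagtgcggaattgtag
A match is a description of these letters and not of binding. In Asns, Gars and Tars it began 23, 30 and 15 bases before the start site (positions -23, -30 and -15), and in Yars it began at position 3 after it.

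**Figure D1:**
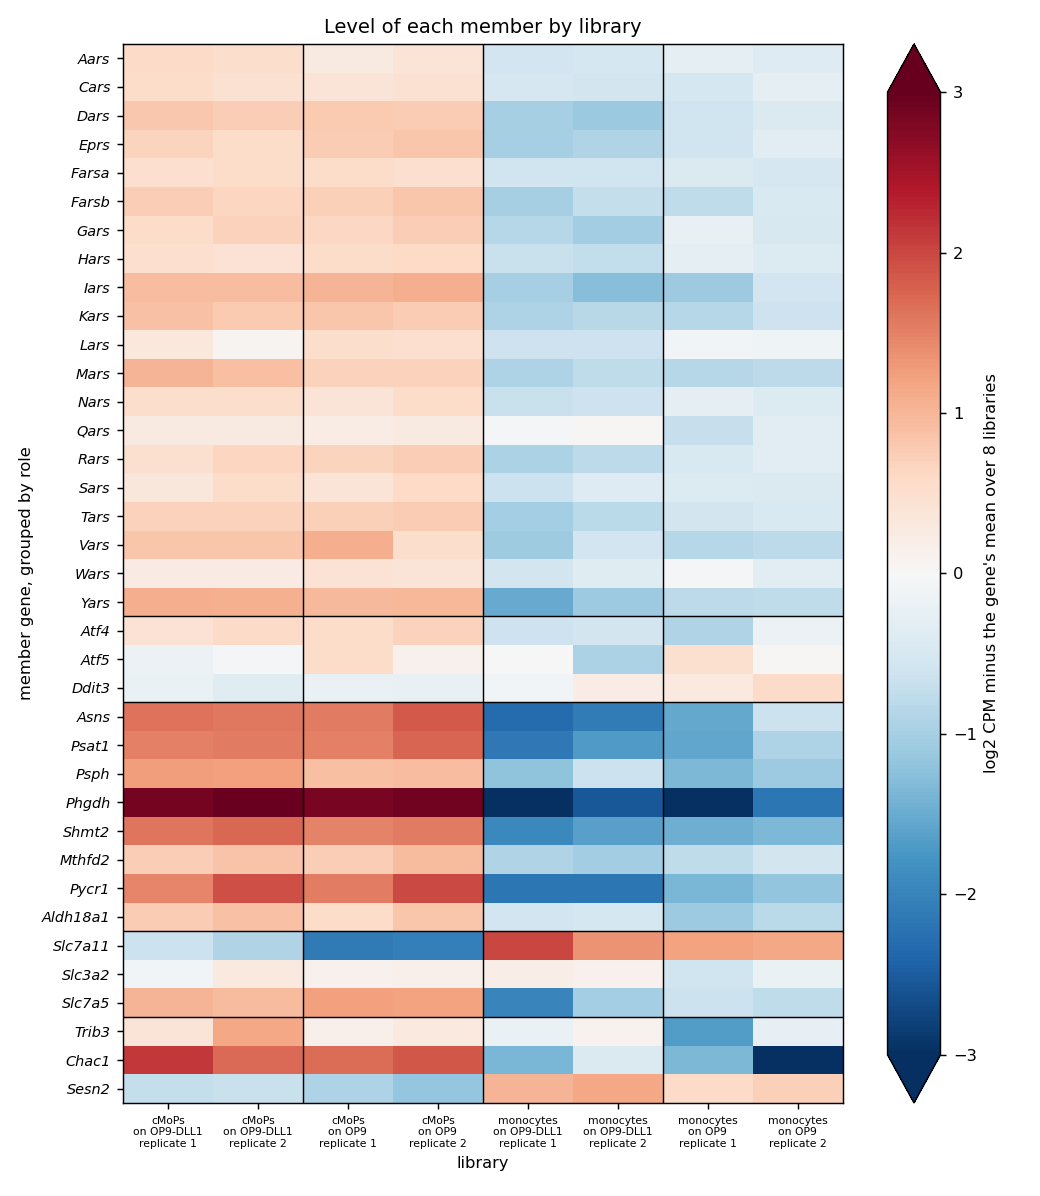
Heat map of the 37 genes, in rows grouped by role, over the 8 libraries in columns. Colour is the log2 CPM of a library minus the gene's mean over all 8, so red is above and blue below that mean. The synthetases and the enzymes are red or near white in the 4 cMoP libraries and blue or near white in the monocyte libraries, and Slc7a11 and Sesn2 run the other way.

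cMoPs carried more RNA for tRNA charging than monocytes on both stromas. On OP9, 20 of 20 synthetases rose in cMoPs against monocytes, with a median log2 fold change of 1.07, against 0.01 over all 13374 genes tested. On OP9-DLL1, 19 of 20 rose, with a median of 1.48, against -0.01 over all genes tested. Genes are said to rise or fall where limma's test, run across all genes, gave a Benjamini-Hochberg adjusted p under 0.05. In the whole table, 28.8% of genes rose and 27.7% fell in cMoPs on OP9, and 28.2% rose and 29.2% fell in cMoPs on OP9-DLL1. Over all 37 genes, 32 rose and 3 fell on OP9, and 30 rose and 2 fell on OP9-DLL1.

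The widest gaps among the synthetases were those of Yars and Iars. Yars, the tyrosine enzyme, had 181 and 177 CPM in cMoPs on OP9-DLL1, against 29.9 and 39.9 CPM in monocytes on OP9-DLL1. On OP9, Yars had 167 and 168 CPM in cMoPs, against 49.4 and 49.7 CPM in monocytes. Its log2 fold change was 2.37 ± 0.14 on OP9-DLL1 (adjusted p = 1.81e-06) and 1.76 ± 0.14 on OP9 (adjusted p = 1.3e-05), where each ± is the SE of the fit. Both cMoP groups lay above both monocyte groups without overlap. Iars, the isoleucine enzyme, had 68.1 and 68.0 CPM in cMoPs on OP9-DLL1, against 18.2 and 14.9 CPM in monocytes on OP9-DLL1, a log2 fold change of 2.05 ± 0.18 (adjusted p = 1.76e-05). On OP9, Iars had 73.3 and 76.8 CPM in cMoPs, against 16.8 and 24.0 CPM in monocytes, a log2 fold change of 1.90 ± 0.18 (adjusted p = 3.3e-05).

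The products of 8 of these genes (Dars, Eprs, Iars, Kars, Lars, Mars, Qars and Rars) sit together in the multisynthetase complex of vertebrate cells. All 8 rose in cMoPs on OP9, and 7 rose on OP9-DLL1. Kars, the lysine enzyme, had 336 and 316 CPM in cMoPs on OP9-DLL1 against 96.5 and 103 CPM in monocytes on OP9-DLL1. On OP9, Kars had 328 and 309.5 CPM in cMoPs, against 101 and 119.9 CPM in monocytes. Mars, the methionine enzyme that also charges the initiator tRNA, had 108 and 99.2 CPM in cMoPs on OP9-DLL1 against 27.8 and 30.9 CPM in monocytes on OP9-DLL1. On OP9, Mars had 85.7 and 84.6 CPM in cMoPs, against 29.3 and 30.6 CPM in monocytes. The cell types did not overlap in either gene, with log2 fold changes of 1.71 ± 0.12 and 1.82 ± 0.12 on OP9-DLL1 and of 1.54 ± 0.12 and 1.51 ± 0.12 on OP9. Dars, the aspartate enzyme (chromosome 1, 128363707 to 128417368 on GRCm38), had 206 and 195 CPM in cMoPs on OP9-DLL1 against 58.9 and 54.3 CPM in monocytes on OP9-DLL1. On OP9, Dars had 204 and 199.6 CPM in cMoPs, against 77.8 and 87.5 CPM in monocytes. Eprs, which charges both glutamate and proline tRNAs, had 365 and 339 CPM in cMoPs on OP9-DLL1 against 115 and 122.5 CPM in monocytes on OP9-DLL1. On OP9, Eprs had 392 and 408 CPM in cMoPs, against 151 and 184 CPM in monocytes. Rars, the arginine enzyme, had 167 and 185 CPM in cMoPs on OP9-DLL1 against 62.0 and 69.6 CPM in monocytes on OP9-DLL1. On OP9, Rars had 189.7 and 200.1 CPM in cMoPs, against 86.7 and 95.1 CPM in monocytes. In each of the 3 the cMoP libraries lay above all monocyte libraries, with log2 fold changes of 1.83 ± 0.11, 1.57 ± 0.12 and 1.42 ± 0.12 on OP9-DLL1 and of 1.29 ± 0.11, 1.26 ± 0.12 and 1.10 ± 0.12 on OP9. Qars, the glutamine enzyme, was the exception on OP9-DLL1, where it had 126 and 125 CPM in cMoPs against 101 and 106 CPM in monocytes, a log2 fold change of 0.27 ± 0.13 (adjusted p = 0.109). On OP9 Qars had 121 and 125 CPM in cMoPs against 64.2 and 82.2 CPM in monocytes and rose by 0.76 ± 0.13 on the log2 scale.

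Among synthetases outside the complex, Farsb, Gars, Tars and Vars had the next widest gaps. Vars, the valine enzyme, had 44.8 and 44.6 CPM in cMoPs on OP9-DLL1 against 12.0 and 16.8 CPM in monocytes on OP9-DLL1. On OP9, Vars had 53.6 and 36.2 CPM in cMoPs, against 14.0 and 14.7 CPM in monocytes. Tars, the threonine enzyme, had 202 and 203 CPM in cMoPs on OP9-DLL1 against 61.8 and 71.2 CPM in monocytes on OP9-DLL1. On OP9, Tars had 206 and 215 CPM in cMoPs, against 85.5 and 91.5 CPM in monocytes. Neither gene's cell types overlapped, although the cMoP libraries on OP9 were further apart for Vars than for any other of the 37 genes. Farsb, the β subunit of the phenylalanine enzyme, had 215 and 201 CPM in cMoPs on OP9-DLL1 against 64.4 and 78.3 CPM in monocytes on OP9-DLL1. On OP9, Farsb had 212 and 229.9 CPM in cMoPs, against 75.6 and 94.0 CPM in monocytes. Gars, the glycine enzyme, which also serves mitochondria, had 42.2 and 46.1 CPM in cMoPs on OP9-DLL1 against 15.8 and 14.0 CPM in monocytes on OP9-DLL1. On OP9, Gars had 43.8 and 47.8 CPM in cMoPs, against 24.5 and 20.4 CPM in monocytes. The log2 fold changes of Vars, Tars, Farsb and Gars were 1.65 ± 0.22, 1.61 ± 0.12, 1.55 ± 0.15 and 1.57 ± 0.15 on OP9-DLL1, and 1.62 ± 0.22, 1.25 ± 0.12, 1.39 ± 0.15 and 1.03 ± 0.15 on OP9. The remaining 8 synthetases, Aars, Cars, Farsa, Hars, Nars, Sars and Wars outside the complex and Lars within it, also rose on both stromas. The smallest rise on OP9 was that of Wars, the tryptophan enzyme, at 0.61 ± 0.14 on the log2 scale (adjusted p = 0.00465). Exons of Farsb and Hars overlap those of Sgpp2 and Hars2 on the opposite strand over 9.47% and 7.97% of their bases, and reads from such stretches could not be told apart by strand.

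Of the roles, the enzymes of amino acid and one-carbon synthesis had the largest median difference between the cell types. All 8 rose in cMoPs on both stromas, with a median log2 fold change of 3.45 on OP9-DLL1 and 2.83 on OP9. Phgdh, the first enzyme of serine synthesis (chromosome 3, 98313170 to 98339990 on GRCm38), had 701 and 742 CPM in cMoPs on OP9-DLL1, against 9.6 and 16.5 CPM in monocytes on OP9-DLL1. On OP9, Phgdh had 682 and 715 CPM in cMoPs, against 7.98 and 21.4 CPM in monocytes. That is 57.4-fold on OP9-DLL1 (log2 5.84 ± 0.39, adjusted p = 3.07e-06) and 53.5-fold on OP9 (log2 5.74 ± 0.39, adjusted p = 4.77e-06). Psat1, the second enzyme of the pathway, had 309 and 319.8 CPM in cMoPs on OP9-DLL1 against 24.4 and 33.5 CPM in monocytes on OP9-DLL1. On OP9, Psat1 had 308 and 361 CPM in cMoPs, against 36.6 and 56.6 CPM in monocytes. Psph, the third, had 80.2 and 77.9 CPM in cMoPs on OP9-DLL1 against 14.4 and 21.3 CPM in monocytes on OP9-DLL1. On OP9, Psph had 61.9 and 63.1 CPM in cMoPs, against 13.2 and 15.8 CPM in monocytes. RNA of each of these serine pathway enzymes was thus higher in cMoPs. The log2 fold changes of Psat1 and Psph were 3.46 ± 0.22 and 2.18 ± 0.19 on OP9-DLL1 and 2.87 ± 0.22 and 2.12 ± 0.19 on OP9. Exons of Psph overlap those of Cct6a on the opposite strand over 10.4% of their bases.

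Serine is passed on to folate metabolism by Shmt2, the mitochondrial enzyme that makes glycine from it. Shmt2 had 466.5 and 509.5 CPM in cMoPs on OP9-DLL1 against 40.5 and 49.5 CPM in monocytes on OP9-DLL1. On OP9, Shmt2 had 430.2 and 454 CPM in cMoPs, against 56.1 and 61.0 CPM in monocytes. Its log2 fold changes were 3.45 ± 0.13 on OP9-DLL1 (adjusted p = 2.17e-07) and 2.92 ± 0.13 on OP9 (adjusted p = 6.01e-07), the lowest adjusted p of the 37 genes in both comparisons. Asns, which makes asparagine from aspartate and glutamine, had 138 and 132 CPM in cMoPs on OP9-DLL1, against 8.96 and 10.3 CPM in monocytes on OP9-DLL1. On OP9, Asns had 130.5 and 160.5 CPM in cMoPs, against 15.3 and 28.6 CPM in monocytes. Asns rose by 3.81 ± 0.25 on OP9-DLL1 and by 2.79 ± 0.25 on OP9 on the log2 scale. Pycr1, the last enzyme of proline synthesis in mitochondria, had 15.0 and 20.8 CPM in cMoPs on OP9-DLL1 against 1.22 and 1.21 CPM in monocytes on OP9-DLL1. On OP9, Pycr1 had 15.9 and 21.7 CPM in cMoPs, against 2.11 and 2.41 CPM in monocytes. Pycr1 rose by 3.86 ± 0.25 on OP9-DLL1 and by 3.04 ± 0.25 on OP9. The remaining enzymes, Mthfd2 of mitochondrial folate metabolism and Aldh18a1 of proline synthesis, rose by 1.77 ± 0.12 and 1.37 ± 0.15 on OP9-DLL1 and by 1.51 ± 0.12 and 1.64 ± 0.15 on OP9.

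**Figure D2:**
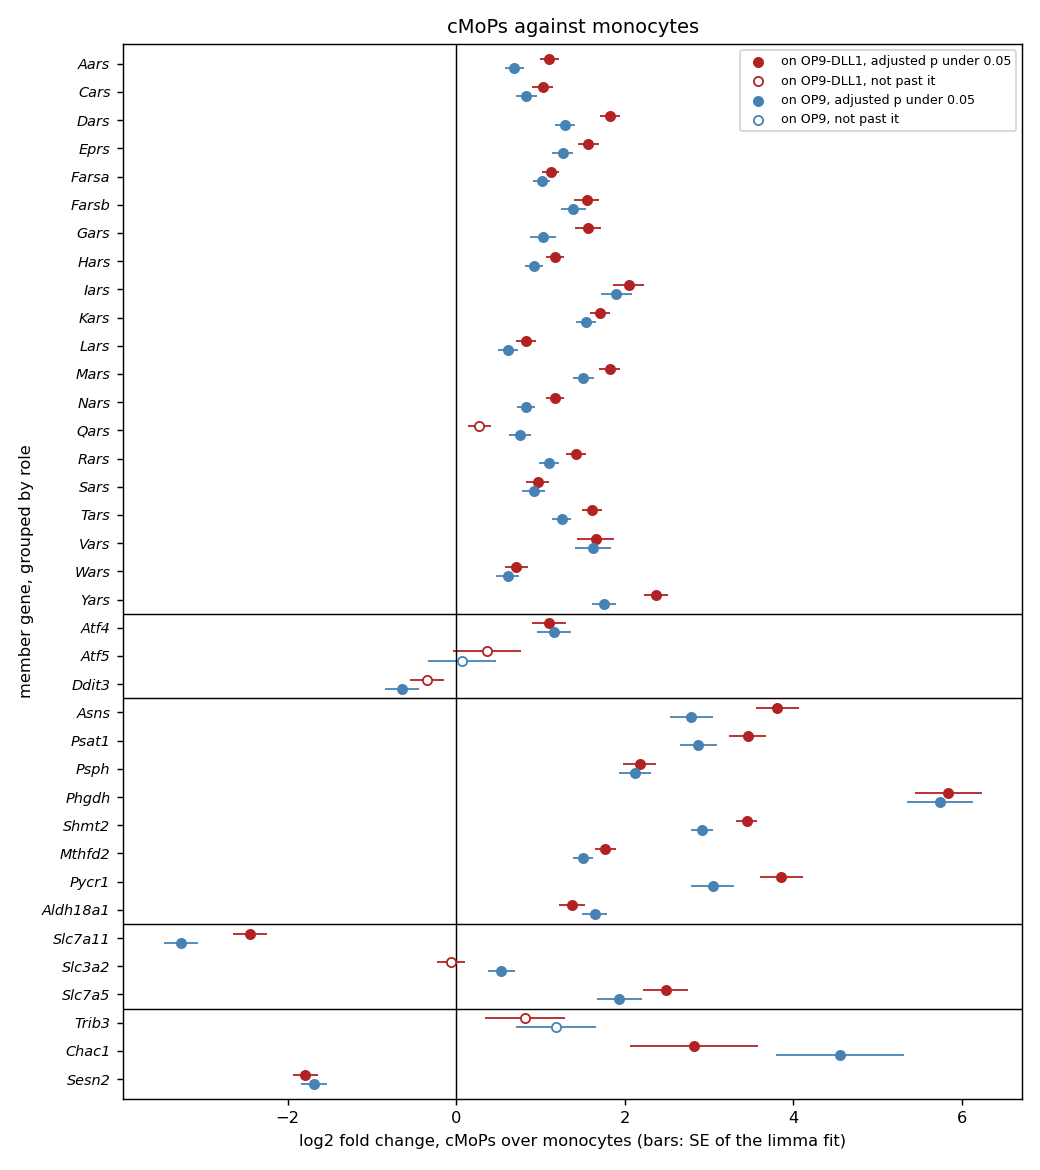
Log2 fold change of cMoPs over monocytes for the 37 genes, grouped by role, on OP9-DLL1 (red) and on OP9 (blue). Points are estimates, bars the SE of the fit, and filled points have an adjusted p under 0.05. Synthetases lie between 0.27 and 2.37, enzymes between 1.37 and 5.84, and Slc7a11 and Sesn2 lie left of 0 on both stromas.

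Amino acid transporters did not move as 1 group. Slc7a11, the light chain of the cystine and glutamate exchanger (chromosome 3, 49892526 to 50443614 on GRCm38), was the gene furthest below monocytes. Slc7a11 had 31.1 and 25.9 CPM in cMoPs on OP9-DLL1 against 193.5 and 123 CPM in monocytes on OP9-DLL1. On OP9, Slc7a11 had 11.0 and 11.8 CPM in cMoPs, against 111 and 108 CPM in monocytes. It fell by 2.44 ± 0.20 on OP9-DLL1 (adjusted p = 1.04e-05) and by 3.27 ± 0.20 on OP9 (adjusted p = 2.75e-06) on the log2 scale. Slc7a5, the light chain of the LAT1 importer of large neutral amino acids, went the other way, with 31.1 and 29.6 CPM in cMoPs on OP9-DLL1 against 3.89 and 7.5 CPM in monocytes on OP9-DLL1. On OP9, Slc7a5 had 36.0 and 35.6 CPM in cMoPs, against 9.73 and 8.99 CPM in monocytes. It rose by 2.49 ± 0.27 on OP9-DLL1 and by 1.94 ± 0.27 on OP9. Slc3a2, the heavy chain that both light chains pair with, had 179 and 234 CPM in cMoPs on OP9-DLL1 against 219 and 209 CPM in monocytes on OP9-DLL1. These groups overlapped. On OP9 it had 208 and 211 CPM in cMoPs against 126 and 166 CPM in monocytes, a rise of 0.54 ± 0.16 on the log2 scale (adjusted p = 0.0198) that did not pass without the first OP9 monocyte library or without either OP9 cMoP library (adjusted p up to 0.0901).

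The transcription factors also parted. Atf4 RNA had 215 and 237 CPM in cMoPs on OP9-DLL1 against 102 and 108 CPM in monocytes on OP9-DLL1. On OP9, Atf4 had 231 and 258 CPM in cMoPs, against 84.9 and 140.3 CPM in monocytes. It rose by 1.10 ± 0.20 on OP9-DLL1 (adjusted p = 0.00138) and by 1.16 ± 0.20 on OP9 (adjusted p = 0.00111). Ddit3, the gene of CHOP, which promotes cell death under lasting stress, had 7.28 and 6.49 CPM in cMoPs on OP9-DLL1 against 7.85 and 9.73 CPM in monocytes on OP9-DLL1 (log2 -0.35 ± 0.20, adjusted p = 0.169). On OP9, Ddit3 had 7.26 and 7.18 CPM in cMoPs against 10.2 and 12.5 CPM in monocytes and fell by 0.64 ± 0.20 on the log2 scale (adjusted p = 0.0227). That call did not hold without the second OP9 monocyte library or without either OP9 cMoP library (adjusted p up to 0.0944), and 68 bases of Ddit3 exons overlap Mars on the opposite strand. Atf5, a relative of Atf4, was at 0.961 to 2.74 CPM in all 8 libraries and passed in neither comparison.

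The feedback regulators of the stress response differed among themselves. Chac1, which breaks down glutathione, had 9.67 and 7.18 CPM in cMoPs on OP9-DLL1 against 0.852 and 1.64 CPM in monocytes on OP9-DLL1. On OP9, Chac1 had 7.11 and 8.11 CPM in cMoPs, against 0.866 and 0.121 CPM in monocytes. The lowest of these was 6 reads, against 37 reads in the other library of that group. Chac1 rose by 2.82 ± 0.76 on OP9-DLL1 (adjusted p = 0.0108), which did not hold without the first OP9-DLL1 library of either cell type (adjusted p up to 0.0771), and by 4.55 ± 0.76 on OP9 (adjusted p = 0.000859). Sesn2, a leucine-binding restraint on mTORC1, had 12.1 and 12.5 CPM in cMoPs on OP9-DLL1 against 40.4 and 44.7 CPM in monocytes on OP9-DLL1. On OP9, Sesn2 had 10.4 and 8.95 CPM in cMoPs, against 29.7 and 32.4 CPM in monocytes. Sesn2 fell by 1.79 ± 0.15 on OP9-DLL1 and by 1.68 ± 0.15 on OP9 on the log2 scale, without overlap on either stroma. Trib3, a pseudokinase that dampens ATF4, passed in neither comparison (log2 0.82 ± 0.48 on OP9-DLL1 and 1.18 ± 0.48 on OP9). Of the 35 calls on OP9 and the 32 on OP9-DLL1, 33 and 31 held in every alternative that kept the gene, and 32 genes were called in both.

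**Figure D3:**
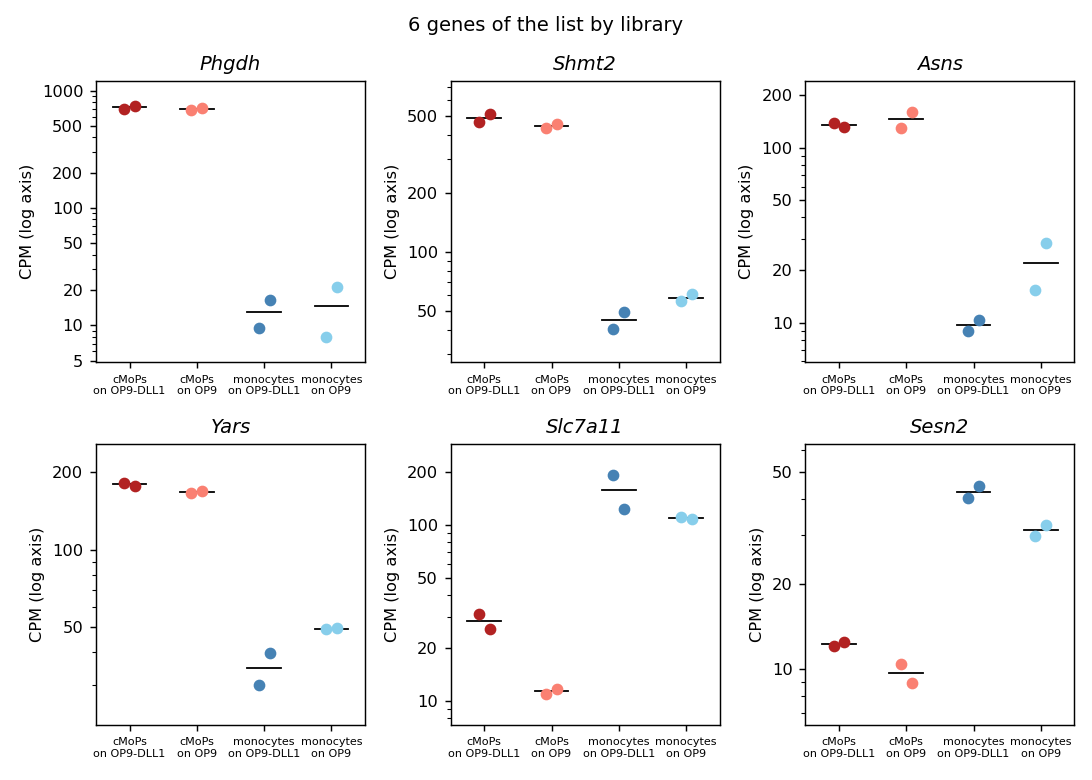
CPM on a log axis for Phgdh, Shmt2, Asns, Yars, Slc7a11 and Sesn2, with 1 point per library and a bar at the mean of each group's 2 libraries. The cMoP groups stand left of the monocyte groups. cMoPs lie above monocytes for the first 4 genes and below them for Slc7a11 and Sesn2.

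Set against each other, the synthetases were the more uniform family. On OP9 their log2 fold changes in cMoPs over monocytes ran from 0.61 to 1.90, while those of ATF4 and its targets ran from -3.27 to 5.74 with a median of 1.64. On OP9-DLL1 the ranges were 0.27 to 2.37 for synthetases and -2.44 to 5.84 for ATF4 and its targets, whose median was 1.77. The mean log2 CPM of the 20 synthetases was 7.22 and 7.20 in cMoPs on OP9-DLL1, 7.22 and 7.24 in cMoPs on OP9, 5.78 and 5.87 in monocytes on OP9-DLL1 and 6.05 and 6.13 in monocytes on OP9. The mean over the 17 genes of the ATF4 list was 5.67 and 5.75 in cMoPs on OP9-DLL1, 5.56 and 5.65 in cMoPs on OP9, 3.93 and 4.12 in monocytes on OP9-DLL1 and 3.95 and 4.15 in monocytes on OP9. The 2 monocyte groups did not overlap in the synthetase mean and did overlap in the other. Synthetases known as ATF4 targets (12 genes) rose by a median of 0.98 on OP9, and the 8 others rose by a median of 1.20. Over the 37 genes the log2 fold changes on OP9 and on OP9-DLL1, which share no library, had a Pearson r of 0.95, against 0.91 over all 13374 genes tested. Each r is a description across genes, which are not independent replicates.

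Levels can be set between genes only per length, here as mean CPM per kb of the exon bases of GENCODE M21. In cMoPs Phgdh stood first of the 37 genes, at 290.2 CPM per kb on OP9-DLL1 and 281 on OP9, ahead of Shmt2 (157 and 142) and Mthfd2 (146 and 150.4). In monocytes Phgdh was 26th on OP9-DLL1 at 5.24 CPM per kb and 28th on OP9 at 5.9. The highest in monocytes was Slc3a2 on OP9-DLL1, at 60.7 CPM per kb, and Nars on OP9, at 63.0. Nars, the asparagine enzyme, was the highest synthetase in all 4 groups, at 116 CPM per kb in cMoPs on OP9-DLL1 and 112 in cMoPs on OP9. Pycr1, Chac1, Trib3 and Atf5 filled the lowest 4 places in both monocyte groups.

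Fewer of these genes differed between the stromas than between the cell types. In monocytes on OP9-DLL1 against OP9, 4 of the 37 fell and 0 rose, while 3.36% of all genes tested rose and 3.03% fell. The 4 were the synthetases Dars, Eprs and Lars, all of the multisynthetase complex, and Asns. The other 5 of the 8 synthetases of the complex did not pass, and of these Qars had a positive value. Taken by unadjusted p under 0.05, 9 of 20 synthetases were lower and 1 was higher, while 10.6% of all genes tested were lower and 11.2% higher by that threshold. Voom on the recovered reads called 5 of the 37 genes, 1 of them higher, and 7.39% of all genes tested. When each library was centred on its median, 9 members fell and 0 rose, and 6.77% of all genes tested were called. The whole table then had 361 genes higher and 545 lower, where it had 450 higher and 405 lower without the centring.

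Asns (chromosome 6, 7675169 to 7693254 on GRCm38) had the largest change of the 4, to 0.46 of its level on OP9. Its 8.96 and 10.3 CPM in monocytes on OP9-DLL1 stood against 15.3 and 28.6 CPM in monocytes on OP9, a log2 fold change of -1.12 ± 0.25 (adjusted p = 0.0345). Both OP9-DLL1 libraries were below both OP9 libraries, which were themselves far apart. Dars had 58.9 and 54.3 CPM in monocytes on OP9-DLL1, against 77.8 and 87.5 CPM in monocytes on OP9, a log2 fold change of -0.54 ± 0.11 (adjusted p = 0.0264). Lars, the leucine enzyme, which also signals leucine to mTORC1, had 53.5 and 54.1 CPM in monocytes on OP9-DLL1, against 78.6 and 75.7 CPM in monocytes on OP9, a log2 fold change of -0.52 ± 0.12 (adjusted p = 0.0372). Eprs had 115 and 122.5 CPM in monocytes on OP9-DLL1, against 151 and 184 CPM in monocytes on OP9, a log2 fold change of -0.49 ± 0.12 (adjusted p = 0.0491). The groups overlapped for none of the 4 genes, but all 4 calls were lost when any of 6 libraries was left out (either monocyte library on OP9-DLL1 or any cMoP library), with adjusted p up to 0.193 for Dars, 0.225 for Eprs, 0.189 for Lars and 0.165 for Asns. The authors' deposited table called 0 of the 37 genes in this comparison, with adjusted p of 0.053 for Dars and 0.0521 for Asns, and it called 4.28% of its genes. With 1 library left out, 0 to 12 of the 37 genes were called: 9 and 12 without the first and the second OP9 monocyte library, 0 and 1 without the first and the second OP9-DLL1 monocyte library, and 0 without any cMoP library. The counts over the whole table moved as well: 8.44% and 18.6% of all genes tested were called without the first and the second OP9 monocyte library, and 2.09% and 1.23% without the first and the second OP9-DLL1 monocyte library. Of the 9 members called without the first OP9 monocyte library 1 was higher, and of the 12 without the second 4 were.

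Direction was shared more widely among the synthetases than the calls. Of 20, 19 had a negative log2 fold change, with a median of -0.27, and for 12 both OP9-DLL1 libraries lay below both OP9 libraries, against 1 above. Over all genes tested, 23.5% had such a gap downward and 24.2% upward. After the 3 that passed, Gars (-0.59 ± 0.15), Yars (-0.52 ± 0.14), Rars (-0.47 ± 0.12) and Tars (-0.41 ± 0.12) had the largest negative values on the log2 scale, with adjusted p of 0.0559, 0.0683, 0.0538 and 0.0691. Qars was the only synthetase with a positive value, 101 and 106 CPM in monocytes on OP9-DLL1 against 64.2 and 82.2 CPM in monocytes on OP9 (log2 0.51 ± 0.13, adjusted p = 0.0571). In the same comparison, 8 of the 9 stroma markers had a negative log2 fold change and 0 of these passed. The ninth, Pdgfrb, a growth factor receptor of stromal cells, rose, with 2.91 and 4.24 CPM in monocytes on OP9-DLL1 against 0.0346 and 0.214 CPM in monocytes on OP9 (log2 5.35 ± 0.93, adjusted p = 0.0119). Of 7 progenitor markers 1 rose and 0 fell, Ms4a3, with 13.7 and 16.1 CPM in monocytes on OP9-DLL1 against 2.34 and 4.21 CPM in monocytes on OP9 (adjusted p = 0.00128). The part of these markers in the synthetase values was not tested.

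Taken as a whole list, ATF4 and its targets had no common direction in monocytes. Their median log2 fold change was -0.05, against 0.01 over all genes tested. Of the 17 genes, 8 were lower and 5 higher without overlap between the groups, as were 23.5% and 24.2% of all genes tested. Atf4 itself had 102 and 108 CPM in monocytes on OP9-DLL1 against 84.9 and 140.3 CPM in monocytes on OP9, and the groups overlapped (log2 -0.05 ± 0.20, adjusted p = 0.911). Ddit3 had 7.85 and 9.73 CPM in monocytes on OP9-DLL1, against 10.2 and 12.5 CPM in monocytes on OP9 (log2 -0.37 ± 0.20, adjusted p = 0.332). The 8 enzymes of amino acid and one-carbon synthesis had a median of -0.35, with 6 negative and 2 positive. Without overlap 5 of the 8 were lower and 1 was higher, against the same shares of all genes tested. Among the enzymes, Pycr1 (-0.89 ± 0.25), Psat1 (-0.67 ± 0.22), Shmt2 (-0.39 ± 0.13) and Mthfd2 (-0.31 ± 0.12) had negative values that did not pass, with adjusted p of 0.0737, 0.106, 0.114 and 0.177. Slc7a5 (-0.79 ± 0.27) and Atf5 (-0.75 ± 0.40) were also negative, with adjusted p of 0.12 and 0.322. Positive values, none of which passed, came from 7 genes. They were Aldh18a1 (0.40 ± 0.15), Slc7a11 (0.49 ± 0.20), Slc3a2 (0.56 ± 0.16), Sesn2 (0.45 ± 0.15), Psph (0.28 ± 0.19) and, with the largest values and SEs, Trib3 (0.91 ± 0.48) and Chac1 (1.87 ± 0.76), and their adjusted p lay between 0.0776 and 0.444. Chac1 had 0.852 and 1.64 CPM in monocytes on OP9-DLL1 against 0.866 and 0.121 CPM in monocytes on OP9, and the groups overlapped. Phgdh had 9.6 and 16.5 CPM in monocytes on OP9-DLL1 against 7.98 and 21.4 CPM in monocytes on OP9, with overlap. The mean log2 fold change of the synthetases was 0.23 below that of the ATF4 list (difference -0.23), and this difference was -0.08 when genes with a mean under 5 CPM were left out.

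**Figure D4:**
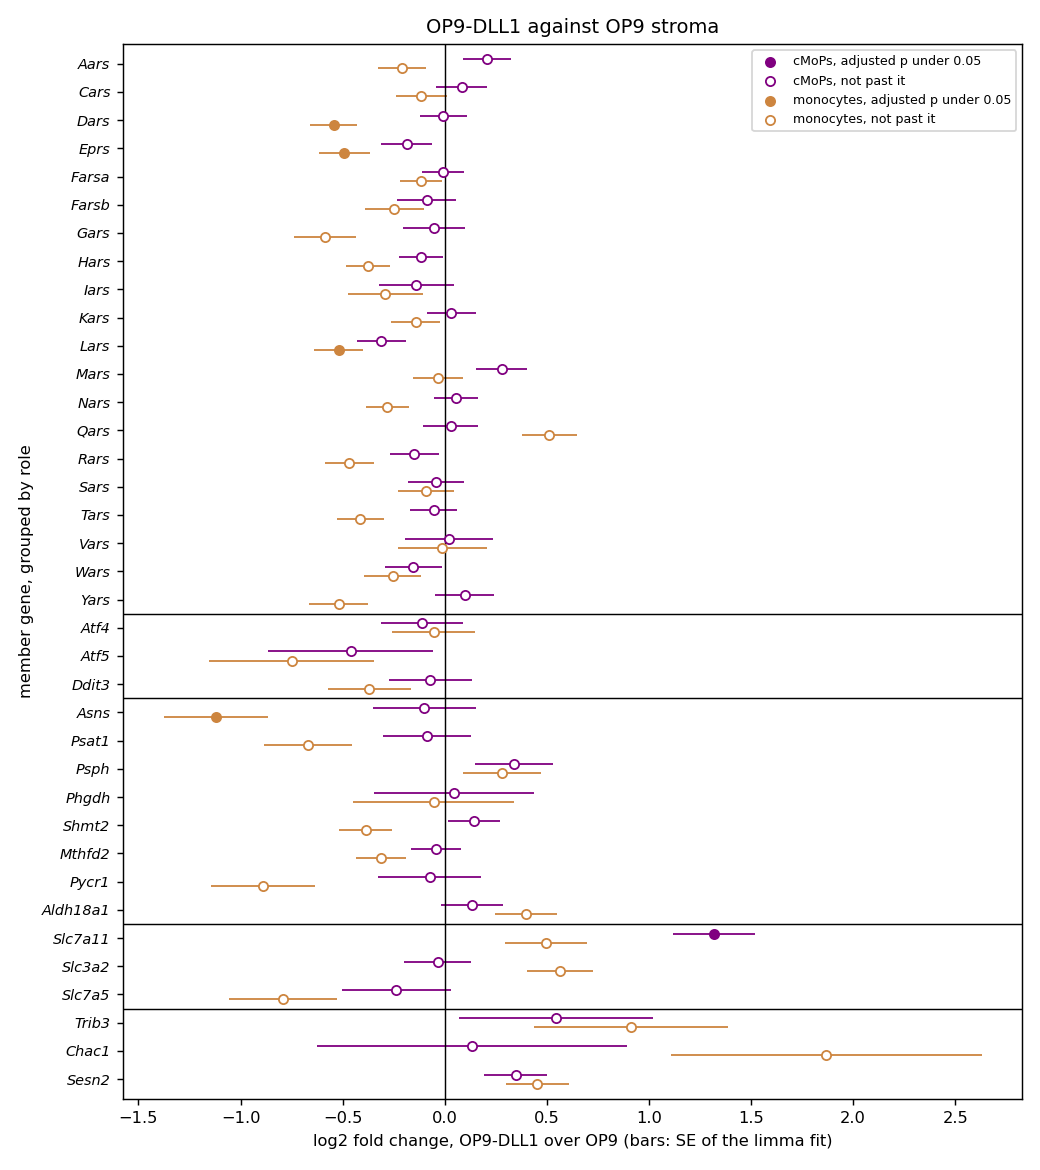
Log2 fold change of OP9-DLL1 over OP9 for the 37 genes, grouped by role, in cMoPs (purple) and in monocytes (brown). Points are estimates, bars the SE of the fit, and filled points have an adjusted p under 0.05. In monocytes 19 of 20 synthetases lie left of 0 and 3 of them and Asns are filled, and in cMoPs Slc7a11 at 1.32 is the only filled point.

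In cMoPs on OP9-DLL1 against OP9, 1 of the 37 genes rose and 0 fell, while 0.464% of all genes tested rose and 0.307% fell. Slc7a11 had 31.1 and 25.9 CPM in cMoPs on OP9-DLL1, against 11.0 and 11.8 CPM in cMoPs on OP9. It was 2.49-fold higher on OP9-DLL1 (log2 1.32 ± 0.20, adjusted p = 0.0222), with both libraries above both of the other group. The call was lost on leaving out any 1 cMoP library (adjusted p up to 0.162) and with voom, while the authors' deposited table called it with an adjusted p of 0.02. Of the 20 synthetases 0 passed with limma-trend or voom, and by unadjusted p under 0.05 there was 1 higher and 1 lower, near the 5.24% higher and 4.23% lower among all genes tested. Their median log2 fold change was -0.03. Atf4 had 215 and 237 CPM in cMoPs on OP9-DLL1 against 231 and 258 CPM in cMoPs on OP9, and the groups overlapped. Overlap was also seen for Asns, with 138 and 132 CPM in cMoPs on OP9-DLL1 against 130.5 and 160.5 CPM in cMoPs on OP9, and for Ddit3, with 7.28 and 6.49 CPM in cMoPs on OP9-DLL1 against 7.26 and 7.18 CPM in cMoPs on OP9. Among the 37 genes the lowest adjusted p after Slc7a11 was 0.439, that of Lars, with 103 and 88.2 CPM in cMoPs on OP9-DLL1 against 119 and 118 CPM in cMoPs on OP9.

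The response of cMoPs to OP9-DLL1 was not shown to differ from that of monocytes for any of these genes. The test of the difference of responses called 0 of 37 with limma-trend and 0 with voom, while 0.0523% of all genes tested were called in either direction. By unadjusted p under 0.05, the response of cMoPs minus that of monocytes was positive for 8 and negative for 2 of the 37, and over all genes tested it was positive for 5.18% and negative for 4.61%. Without the first OP9 monocyte library 1 of the 37 was called, with a positive difference, and 0.217% of all genes tested. Without the second 2 were called, both negative, and 8.4% of all genes tested. With all libraries kept, Dars had the lowest adjusted p of the 37 genes (log2 difference 0.54 ± 0.16, adjusted p = 0.356), and the differences were 1.02 ± 0.36 for Asns and 0.82 ± 0.28 for Slc7a11. Across the 37 genes the responses of the 2 cell types, which share no library, had a Pearson r of 0.53, against 0.40 over all genes tested.

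By promoter, the 10 genes with the motif had a median log2 fold change of -0.35 in monocytes on OP9-DLL1 against OP9, from -1.12 to 1.87, and the 19 matched genes without it had a median of -0.12, from -0.75 to 0.56. In cMoPs over monocytes on OP9-DLL1 the medians were 1.83 for the 10 with the motif and 1.55 for the 19 without it. Both kinds of promoter thus held genes that went either way. The windows printed above belong to Asns, which fell in monocytes on OP9-DLL1, and to Gars, Yars and Tars, which did not pass there.

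Genes that work beside these 37 were read from further lists. The 3 scaffold proteins of the multisynthetase complex rose in cMoPs on both stromas, and 2 of them fell in monocytes on OP9-DLL1. In that monocyte comparison 3.36% of all genes tested rose and 3.03% fell. Eef1e1 had 41.4 and 42.6 CPM in monocytes on OP9-DLL1 against 81.9 and 90.4 CPM in monocytes on OP9 (log2 -1.04 ± 0.11, adjusted p = 0.0015). Aimp2 had 28.6 and 31.1 CPM in monocytes on OP9-DLL1 against 47.7 and 50.9 CPM in monocytes on OP9 (log2 -0.72 ± 0.12, adjusted p = 0.00862). Both were without overlap, and the third scaffold, Aimp1, had a value of -0.06 on the log2 scale. Of 17 mitochondrial synthetases, 14 rose in cMoPs on OP9-DLL1 and 0 fell, while 28.2% of all genes tested rose and 29.2% fell there. In cMoPs on OP9, 14 of the 17 rose and 1 fell, while 28.8% of all genes tested rose and 27.7% fell. The gene that fell was Lars2, with 3517 and 3778 CPM in cMoPs on OP9 against 7927 and 4637 CPM in monocytes on OP9. Its CPM was far above that of any other of the 17. The median of the 17 in monocytes on OP9-DLL1 against OP9 was 0.05. There 1 of them passed, the alanine enzyme Aars2, which rose to 5.37 and 4.92 CPM on OP9-DLL1, against 2.69 and 2.26 CPM on OP9 (adjusted p = 0.0449).

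Upstream of ATF4, 14 of 15 listed genes of the integrated stress response were in the table. In monocytes on OP9-DLL1 against OP9 2 of them rose and 2 fell, while 3.36% of all genes tested rose and 3.03% fell. Eif2s1, the gene of eIF2α, had 194 and 198 CPM in monocytes on OP9-DLL1 against 332 and 321 CPM in monocytes on OP9 (log2 -0.74 ± 0.10, adjusted p = 0.00519). Eif2b3 and Eif2b2, both subunits of its exchange factor, went opposite ways, with log2 fold changes of -0.74 ± 0.11 and 0.88 ± 0.12. Among 16 further ATF4 targets in the table, 1 rose and 1 fell in monocytes on OP9-DLL1, against the same shares of all genes tested. Sqstm1, an autophagy receptor, had 56.5 and 59.1 CPM in monocytes on OP9-DLL1 against 27.2 and 30.3 CPM in monocytes on OP9, and Slc7a1, an arginine and lysine importer, had 6.11 and 5.04 CPM in monocytes on OP9-DLL1 against 12.4 and 12.3 CPM in monocytes on OP9. In cMoPs against monocytes, these 16 further targets had no common direction. On OP9 7 of them rose and 4 fell, and on OP9-DLL1 7 rose and 6 fell. Of the 14 upstream genes, 8 rose and 4 fell on OP9, and 6 rose and 3 fell on OP9-DLL1. Among 17 further genes of amino acid and one-carbon metabolism, 12 rose in cMoPs on each stroma, while 3 fell on OP9-DLL1 and 2 fell on OP9. The shares of all genes tested were 28.2% higher and 29.2% lower on OP9-DLL1, and 28.8% higher and 27.7% lower on OP9. Shmt1, the cytosolic counterpart of Shmt2, had 140.4 and 116 CPM in cMoPs on OP9-DLL1 against 3.56 and 6.28 CPM in monocytes on OP9-DLL1, a log2 fold change of 4.75 ± 0.24. In monocytes on OP9-DLL1 against OP9, Ass1, the argininosuccinate synthase, was among those that rose, and the spermidine synthase Srm fell (log2 -1.46 ± 0.27, adjusted p = 0.0158). In cMoPs on OP9-DLL1 against OP9, 0 genes of these 5 lists passed with limma-trend, and by unadjusted p under 0.05 there were 3 higher and 4 lower, where 5.24% of all genes tested were higher and 4.23% lower. The authors' deposited table called Eif2b2 higher (adjusted p = 0.0148) and Slc7a1 lower (adjusted p = 0.0383) there, among 167 genes higher and 77 lower.

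Myc, whose protein is known to raise transcription of many genes of growth and translation, was also higher in cMoPs and lower in monocytes on OP9-DLL1. In cMoPs Myc had 167 and 154 CPM on OP9-DLL1, against 201 and 194 CPM on OP9 (adjusted p = 0.672). In monocytes it had 5.06 and 6.32 CPM on OP9-DLL1, against 15.2 and 20.8 CPM on OP9 (log2 -1.65 ± 0.18, adjusted p = 0.0014). Myc was chosen after earlier results of these data were known, and its part in the results was not tested.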

How the data were processed

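RNA was measured in 8 libraries, 2 in each of 4 groups. The submitters' processing notes name STAR 2.7.9a, Salmon 1.5.2, featureCounts 2.0.3, Subread, limma, edgeR and bcl2fastq, and build mm10. Not given in the sources used here are the order of these tools, the annotation release and the gene filter. The deposited values are log2 CPM, normalized by the authors and of the form that adds 0.5 reads to each count. The authors' deposited table also holds log2 fold changes and adjusted p-values of their own, whose coculture contrasts run OP9 minus OP9-DLL1 and were turned here. Of 13430 entries, 42 repeated a gene identifier and were dropped. Whole reads were recovered for 100% of values (tolerance 0.001) and used for depth and for voom only. The labels name a SMARTer Ultra Low kit, which does not mark strand, so reads of overlapping genes on opposite strands cannot be told apart.

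The test was limma-trend (limma 3.58.1, R 4.3.3) on the log2 values, fitting all 8 libraries together with a mean for each group, which leaves 4 residual degrees of freedom. It covered the 13374 genes that reached 1 CPM in 2 or more libraries. It is two-sided with Benjamini-Hochberg adjustment over all genes tested and a threshold of 0.05. The script was tested on simulated data with the same dispersion set for all genes and groups. The groups of real libraries differed in spread, so that test does not cover the widest of them. In each group the 2 libraries differed beyond sampling noise. The chi-square per degree of freedom was 171 in monocytes on OP9 and 48.6 in monocytes on OP9-DLL1. It was 37.1 in cMoPs on OP9-DLL1 and 24.2 in cMoPs on OP9. The SE of the fit rests on a spread per gene shared by all 4 groups, so it makes no separate allowance for the wider gap in monocytes on OP9.

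The 37 genes, the further lists, the motif and the rules were chosen with earlier results of these data known. Values in every sample are given for genes that passed, up to 10 synthetases and 10 others per comparison by size, and for Atf4, Ddit3 and Asns. Qars and Slc3a2, and the values of Phgdh and Lars where they did not pass, were added after their values were seen. From the further lists up to 3 genes per comparison were eligible by adjusted p, of which some are named. Promoter sequences are from RefSeq on GRCm38.p6, positions and exon lengths from GENCODE M21 on GRCm38 (mm10). Alternatives were voom, centring on library medians, no trend, no filter, a mean of 5 CPM, log2(CPM + 1), a replicate block, only the libraries compared, each library left out and the authors' table.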

Additional observations from a re-analysis of the deposited data

How the results depend on the processing

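Calls between cell types were stable and calls between stromas were not. Of the 37 genes, 33 to 36 were called on OP9 and 31 to 34 on OP9-DLL1 in cMoPs against monocytes under every alternative, with each library left out included. In monocytes on OP9-DLL1 against OP9 the 4 calls became 9 with libraries centred on their medians, 7 with a mean of 5 CPM or more, 7 with log2(CPM + 1), 9 with the replicate block, and 0 without the mean-variance trend, with only the 4 libraries compared and in the authors' deposited table. Leaving out 1 library gave 0 to 12, where the lone library of a group is assumed to vary like the others. In cMoPs the 1 call became 0 with voom and without the trend, and 0 to 1 with a library left out. In the difference of responses 0 became 0 to 2 with a library left out. The mean log2 fold change of synthetases minus that of the ATF4 list was -0.0843 in monocytes (against -0.23), -0.053 in the difference of responses (against 0.10), -0.33 on OP9 (against -0.42) and -0.39 on OP9-DLL1 (against -0.31) with a mean of 5 CPM or more, and -0.25 on OP9 and -0.19 on OP9-DLL1 with log2(CPM + 1). The low genes Atf5, Trib3, Chac1 and Pycr1 weigh in these means. The labels do not say whether the replicate numbers pair the samples. Same-numbered libraries of 2 groups deviated together with a correlation of 0.02 to 0.09. With 2 libraries a group, so weak a correlation cannot decide whether they shared an animal or a culture. The replicate block lost no call of the 37 genes. Depth and 2 libraries a group limit Chac1, with 6 reads in 1 monocyte library. The cause of these shifts was not tested.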
